A study of Mus with 2 samples.

Results

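The genes described here carry dietary fat and cholesterol through the absorptive cell of the intestine. They are 10 genes chosen by name, Apoa1, Apoa4, Apob, Apoc3, Mttp, Npc1l1, Fabp1, Fabp2, Dgat1 and Cd36, out of 8995 genes listed in the authors' deposited tables. Of the 10 genes, 8 had a row in at least 1 table and 6 had a row for all 5 cell types. Apoa4 and Cd36 had no row in any table, so they are not analysed here.

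Epithelium of the mouse distal ileum was dissociated, and single cells were sorted by flow cytometry and profiled with inDrops, in which each cell is caught in a droplet and its RNA molecules receive the barcode of that droplet. One sample pooled 3 mice with the genotype Nav1.8Cre+/-DTA+/-, in which diphtheria toxin A is made under the Nav1.8 Cre driver of pain-sensing neurons (nociceptors), so that these neurons are lost. The other pooled 3 littermates with the genotype Nav1.8Cre-/-DTA+/-, which carry the toxin allele without Cre. Per the deposited library sheet, all mice were males of 8 weeks, and they are labelled as baseline, without further treatment. The toxin is directed at neurons, and the measured cells are epithelial. Each genotype is 1 pooled sample, so genotype has no replicate and cannot be tested, and no standard error is given. The tables do not say which genotype is the first group of cells, nor that the order is the same for every cell type, so the groups are called group 1 and group 2 and no direction of nociceptor loss is given.

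In the gut lumen, dietary fat is cut into fatty acids and monoacylglycerols, which enter the enterocyte together with cholesterol, are bound by carrier proteins and are rebuilt into triglyceride in the endoplasmic reticulum. There the triglyceride is loaded onto apolipoprotein B to form the chylomicron, which takes up further apolipoproteins and leaves the cell towards the lymph. Most of this absorption takes place in the upper small intestine, and the distal ileum receives what is left.

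A fold change below is the authors' log2 ratio of group 1 over group 2, and a detection share is the percentage of the cells of a group in which the gene was found. Each cell type table lists genes found in 10.0% or more of 1 group, so a gene without a row had no value to compare. In enteroendocrine and tuft cells the scale could be read from the values: for all 245 and 2815 genes at 0 in 1 group, the fold change was the log2 of the mean count per cell plus 1, with whole counts summed over 34 and 40 cells (groups 1 and 2) of enteroendocrine and 18 and 7 cells of tuft type. These counts were not scaled for depth. In stem and goblet cells 98.7% and 99.96% of fold changes were likewise ratios of whole numbers, against 0.204% and 0.198% after a fixed shift of the same values, whereas in enterocytes 13.4% were (0.117% after the shift), and the scale there is not settled. A difference in molecules per cell between the groups thus enters the fold changes of those 4 cell types, and the median over all genes was -0.03 in enterocytes, -0.07 in stem, -0.04 in goblet, -0.05 in enteroendocrine and -0.11 in tuft cells. Among the genes found in 70% or more of the cells of each group it was -0.07, -0.20, -0.10, 0.03 and -0.33 in the same order. Weakly detected genes are compressed towards 0 by the added 1.

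The cell type names were set beside their markers. All 7 goblet markers were detected in 85.4% to 100% of goblet cells. All 7 tuft markers were listed for tuft cells, and 10 of 11 enterocyte markers were listed for enterocytes. The exception was Lct, the lactase of the upper intestine, which had no row for any cell type. All 6 stem markers were listed for stem cells, at no more than 54.0% of a group, and all 8 enteroendocrine markers for enteroendocrine cells. A listing alone does not set a cell type apart. All 7 goblet markers were listed for every cell type, at up to 83.8% of enterocytes and 86.2% of stem cells. For tuft cells 10 of 11 enterocyte markers were listed, and for goblet cells 9 of 11. Markers of macrophages and endothelium, cell types that also use Cd36, had 1 of 6 genes listed in enteroendocrine cells and none of 6 in the other cell types.

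Detection of the lipid genes was highest in the absorptive cells. All 6 genes listed for every cell type had their highest share, as the mean of both groups in the authors' deposited table, in enterocytes. Apob, the structural protein of the chylomicron, was detected in 54.9% of enterocytes and in 15.6% to 21.4% of each other cell type. Dgat1, which makes the last step of triglyceride synthesis, was at 69.8% in enterocytes and between 21.1% (tuft) and 40.2% (stem) elsewhere. Mttp, the transfer protein that loads lipid onto apolipoprotein B, was at 50.9% in enterocytes and between 11.9% (enteroendocrine) and 32.6% (tuft) elsewhere. Npc1l1, the brush border cholesterol importer that ezetimibe blocks, was at 42.4% in enterocytes and between 5.55% (tuft) and 19.0% (goblet) elsewhere. These 4 genes thus shared one pattern.

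Apoa1 and Fabp2 departed from that pattern. Apoa1, the main apolipoprotein of high-density lipoprotein, was detected in 97.8% of enterocytes and in 87.45% (enteroendocrine) to 94.45% (tuft) of the other cell types, as the mean of both groups in the authors' deposited table. Fabp2, the intestinal fatty acid binding protein, was at 54.7% in enterocytes and 47.6% in goblet cells, but at 21.6% in enteroendocrine, 18.9% in stem and 8.35% in tuft cells. Droplets also capture RNA released by other cells, and no source used here gives the depth per cell type. Free RNA was not separated from these shares in any cell type.

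**Figure D1:**
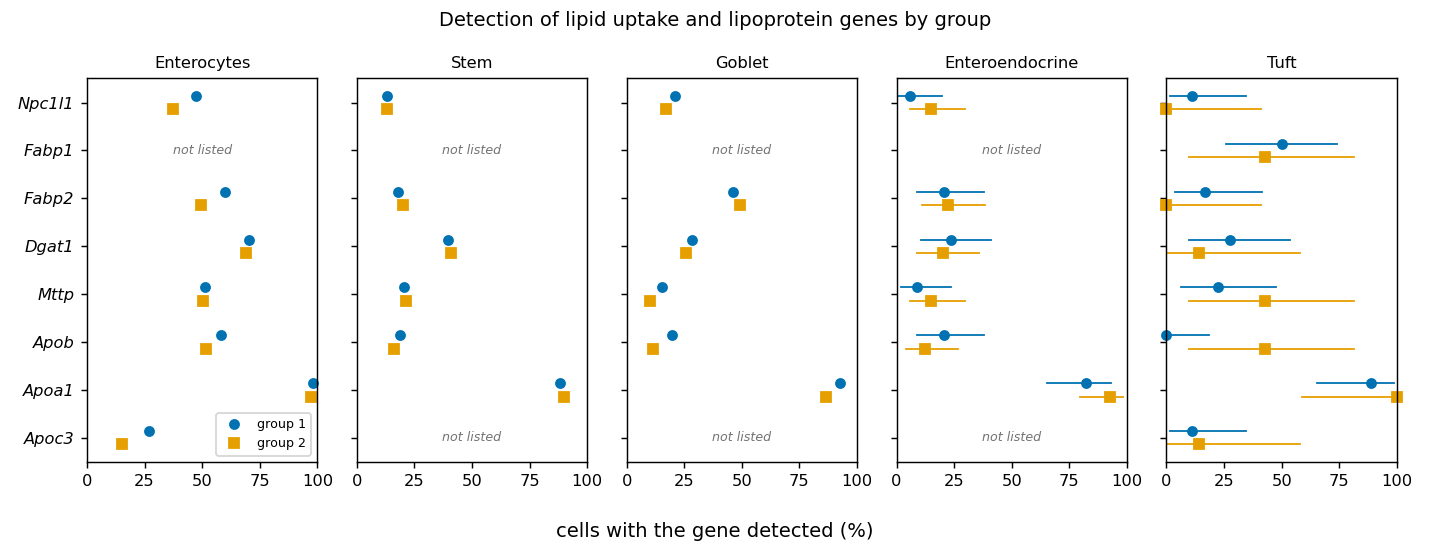
Share of cells with each gene detected (x axis, percent) in group 1 (circles) and group 2 (squares) for 5 cell types. Bars in the enteroendocrine and tuft panels are exact 95% binomial intervals that cover counting error only, and no interval was computed in the other panels. Apoa1 lies at 82.4% or more in every panel, while Apob, Mttp, Npc1l1 and Dgat1 are highest in enterocytes.

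The authors' table of cluster markers placed most rows of the lipid genes in 1 absorptive cluster. It lists genes with a log2 fold change of at least 0.25 and detection in at least 25% of a cluster, and clusters were made from these same cells, so the values describe the clusters and test nothing. Of its rows, 52.4% were ratios of whole numbers too (0.334% after the shift). Cluster 1, in which 9 of 11 enterocyte markers had a row, held 7 of the 10 marker rows of the lipid genes, against 11.5% of all 2096 rows. Behind its leading gene came Fabp2 and Apoa1, for which the authors' deposited table gave log2 ratios over all other cells of 2.57 and 2.41. Fabp2 was detected in 90.8% of that cluster and 24.2% of other cells, whereas Apoa1 was detected in 100% and 93.8% in the authors' deposited table. For Apoa1 the cluster was therefore set apart by the amount of transcript per cell and hardly by detection.

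The other rows in cluster 1 were smaller. The authors' deposited table gave log2 fold changes of 0.91 for Apob, 0.67 for Npc1l1, 0.55 for Apoc3 (an apolipoprotein that restrains the clearance of triglyceride-rich particles), 0.42 for Dgat1 and 0.42 for Mttp. Apoc3 was detected in 34.4% of the cluster and 7.7% of other cells in the authors' deposited table. Cluster 3, led by Zc3h7a and Itga9, also listed Dgat1 at 0.31, and cluster 5, led by the ribosomal RNA-linked transcript Gm42418, listed Apoa1 at 0.54 in the authors' deposited table. Both clusters also held enterocyte markers, 2 of 11 in cluster 3 (Anpep and Sis) and 3 of 11 in cluster 5 (Anpep, Slc5a1 and Dpp4). Cluster 0, led by Lypd8 and Reg3b, listed none of the 10 genes.

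Fabp1 stood outside the absorptive cluster. It encodes the liver type fatty acid binding protein, which is abundant in liver and in enterocytes of the upper intestine. In the authors' deposited table its marker row was in cluster 7, at a log2 ratio of 2.02, and 48.0% of that cluster and 2.2% of all other cells were positive. Cluster 7 is tuft-like, since 6 of 7 tuft markers had a row there, including Sh2d6, Dclk1 and Trpm5, and Fabp1 was its 7th highest gene of 215. No enterocyte marker had a row in cluster 7. Fabp1 was likewise listed in the tuft table and in no other cell type table.

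**Figure D2:**
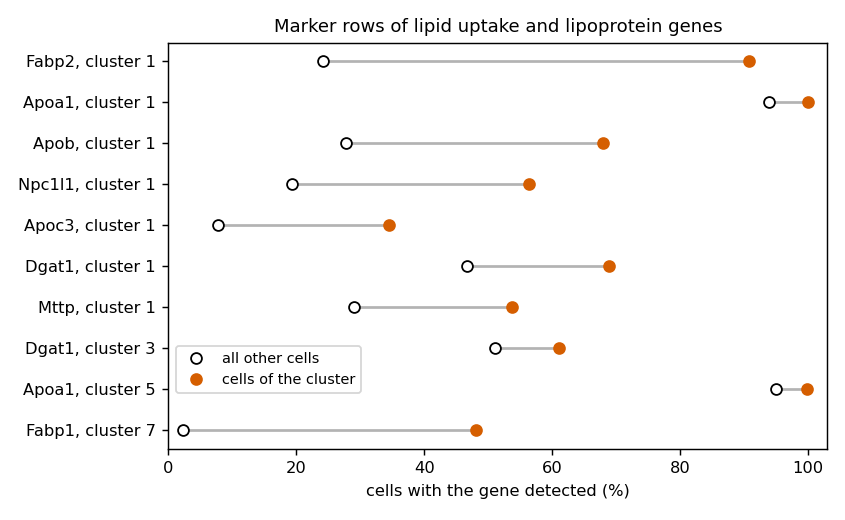
Share of cells with the gene detected (x axis, percent) inside the named cluster (filled circles) and in all other cells (open circles) for the 10 marker rows of the lipid genes. Fabp2 goes from 24.2% to 90.8% in cluster 1, and Fabp1 from 2.2% to 48.0% in cluster 7.

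In enterocytes, the comparison of groups put Apoa1 highest of all 3426 genes, with the cholesterol importer, the fatty acid binding protein and Apoc3 next among the lipid genes. Of the 7 genes listed, 1 reached a log2 fold change of 0.25, the size used here for a call, where 0.204% of all genes did. None of the 7 was at -0.25 or less, where 1.55% of all genes were, and 5 of 7 were above 0 against 21.4% of all genes. Their median was 0.18, beside -0.03 for all genes. By the authors' deposited table Apoa1 was found in 98.2% of group 1 and 97.4% of group 2 cells. Its log2 ratio was 0.50, a ratio of 1.42 on a scale that is not settled for enterocytes. Its gene lies on chromosome 9 from 46228630 to 46230469 (mm10), protein-coding like all 10.

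The next values were those of Npc1l1, Fabp2 and Apoc3. Npc1l1 (chromosome 11, 6211011 to 6230245) was found in 47.2% of the cells of group 1 and 37.5% of those of group 2, and Fabp2 (chromosome 3, 122895072 to 122899506) in 59.9% and 49.4%, in the authors' deposited table. The authors' deposited table placed them at 0.19 and 0.18 (log2), ranks 16 and 19 of 3426. Apoc3 (46233050 to 46235636 on chromosome 9) stood at 0.20, with 27.0% and 15.3% of cells positive, and Apob (7977629 to 8016839 on chromosome 12) at 0.12, with 58.0% and 51.8% positive, by the authors' deposited table. In contrast, Mttp (138089855 to 138143418 on chromosome 3) stood at -0.0031, with 51.4% and 50.3% positive, and Dgat1 (76502012 to 76512021 on chromosome 15) at -0.07, with 70.4% and 69.2% positive, by the authors' deposited table. All 7 genes were detected in a larger share of group 1, where 26.5% of all genes were. Of the 11 enterocyte markers, 9 of the 10 listed also exceeded the median over all genes, with a median log2 fold change of 0.10 and none at 0.25. Their detection shares summed to 586 points in group 1 and 525.8 in group 2. Goblet markers went the other way, with 2 of 7 at -0.25 or less, a median of -0.18 and summed shares of 308.6 and 373.8 points. The part of either list in these values was not tested.

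Apoa1 and Apoc3 are neighbours, with Apoa4, in a stretch of 14.8 kb on chromosome 9 (46228630 to 46243458, mm10). Both listed genes of this stretch were higher in group 1 in enterocytes. In tuft cells, the other type that listed both, the authors' deposited table had Apoc3 at -0.04. That value rests on smallest counts of 2 molecules in group 1 and 1 in group 2. The median over all genes there was -0.11.

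**Figure D3:**
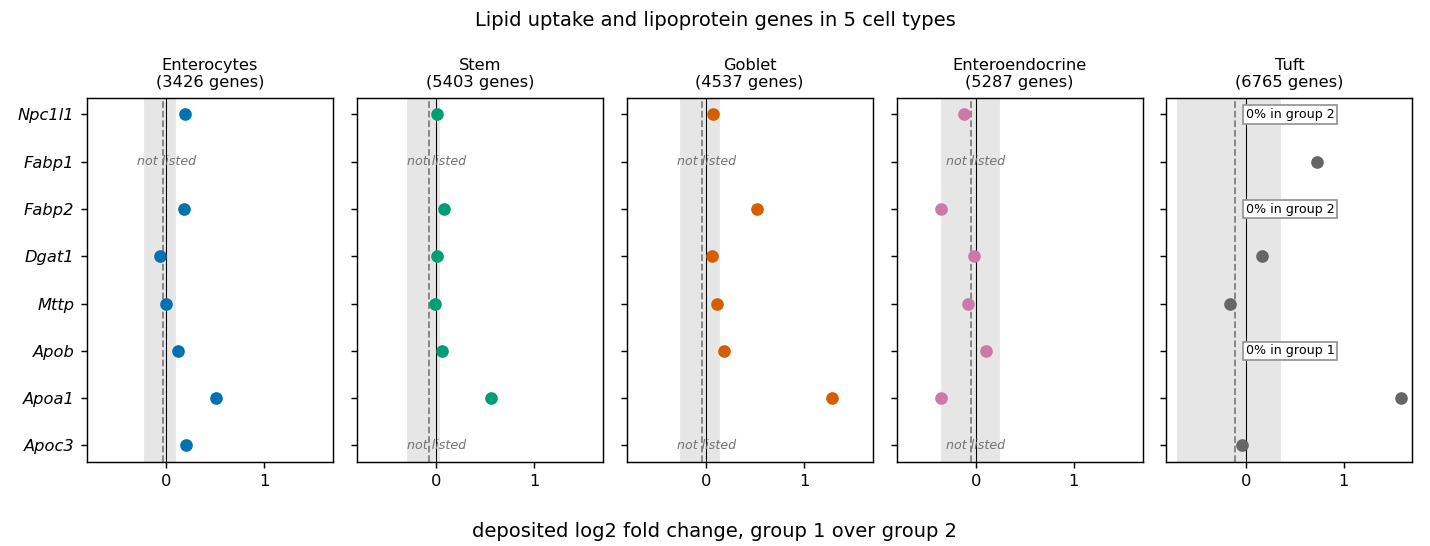
Deposited log2 fold change of group 1 over group 2 (x axis) for the 8 listed genes in each cell type. The grey band holds the middle 95% of all genes of the cell type, the dashed line is their median, and genes at 0% in 1 group have no point. Apoa1 lies right of the band in enterocytes, stem, goblet and tuft cells and left of it in enteroendocrine cells.

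In stem cells, Apoa1 was again the highest gene, now of 5403, and was the 1 gene of the whole table to reach 0.25 (0.0185% of genes). Its log2 ratio in the authors' deposited table was 0.56, and 88.2% of group 1 and 90.0% of group 2 cells were positive. Detection was thus lower where the mean was higher. The other 5 listed genes lay between -0.02 for Mttp and 0.08 for Fabp2 in the authors' deposited table, and all 6 were above the median of all genes. None of the 6 was at -0.25 or less, where 4.39% of all genes were. Npc1l1 was detected in 13.2% of both groups in the authors' deposited table, and 1 of the 6 genes, Apob, was detected in a larger share of group 1 (18.8% and 16.3%), where 7.77% of all genes were. All 7 listed enterocyte markers also exceeded the median over all genes, with a median of 0.05. Their detection shares summed to 231.2 points in group 1 and 236.9 in group 2. Of the goblet markers, 3 of 7 were at -0.25 or less, with a median of -0.20 and summed shares of 306.4 and 384.3 points, and of the 6 stem markers 1 was above the median of all genes, with summed shares of 129.2 and 169.8 points. The part of these lists in the Apoa1 value was not tested.

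In goblet cells, the deposited ratio of group 1 over group 2 was above 2 for Apoa1, and Fabp2 was among the 10 highest genes. Of the 6 genes listed, 2 reached 0.25, where 0.617% of all genes did, and none was at -0.25 or less, where 2.76% were. Apoa1 was at 1.29 by the authors' deposited table, a deposited ratio of 2.44, rank 1 of 4537. Of group 1 cells 92.8% were positive, and of group 2 cells 86.4%. Fabp2 was at 0.52, rank 8, and 46.2% and 49.0% of cells were positive by the authors' deposited table, so group 1 had more transcript but not more positive cells. Apob was at 0.18 (19.5% and 11.6%), Mttp at 0.11 (15.4% and 10.2%), Npc1l1 at 0.07 (21.0% and 17.0%) and Dgat1 at 0.06 (28.2% and 25.9%) in the authors' deposited table. All 6 were above 0, against 27.3% of all genes, with a median of 0.15. Beside them, 9 of 9 listed enterocyte markers exceeded the median over all genes, 1 of them at 0.25 or more, and their detection shares summed to 289.8 points in group 1 and 257.8 in group 2. All 5 Paneth markers were listed, 3 at 0.25 or more and 1 at -0.25 or less, with a median of 0.58 and summed shares of 163 and 162.6 points. The part of enterocyte or Paneth cell RNA in the goblet values was not tested.

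In enteroendocrine cells, Apoa1 and Fabp2 were on the other side. The smallest whole counts that give the deposited Apoa1 value are 115 molecules in 34 cells of group 1 and 185 in 40 cells of group 2, and the next possible pair is 264 and 410. Apoa1 was found in 82.4% of the cells of group 1 (exact 95% interval 65.5% to 93.2%) and 92.5% of group 2 (79.6% to 98.4%), and the authors' deposited table put it at -0.36 (log2). The intervals, which cover counting error only, overlap. For Fabp2 the smallest counts are 7 molecules in 7 cells of group 1 and 22 in 9 cells of group 2 (the next pair is 48 and 84), and the authors' deposited table put it at -0.36 as well. Of the 6 genes listed, these 2 were at -0.25 or less, where 6.47% of all genes were, and none reached 0.25, where 2.23% did. Apob was at 0.10, Dgat1 at -0.02, Mttp at -0.08 and Npc1l1 at -0.12 in the authors' deposited table, each with smallest counts of 15 molecules or fewer in a group. Of 8 listed enterocyte markers, 5 were at or below the median of all genes and 3 at -0.25 or less, and their detection shares summed to 276.5 points in group 1 and 322.5 in group 2. The 8 enteroendocrine markers themselves had 4 at -0.25 or less and 2 at 0.25 or more, with a median of -0.39 and summed shares of 394.1 and 410 points. The part of these lists in the Apoa1 and Fabp2 values was not tested.

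In tuft cells, of which there were 18 and 7, Apoa1 was rank 1 of 6765 genes. The smallest counts that give its value are 98 molecules in 16 of 18 cells of group 1 and 8 molecules in 7 of 7 cells of group 2, and the next pair is 214 and 23. The authors' deposited table put it at 1.59 (log2), a ratio of 3.01 with the added 1. Fabp1, the tuft-cluster gene (71199879 to 71205034 on chromosome 6), stood at 0.72 by the authors' deposited table, with smallest counts of 33 molecules in 9 cells and 5 molecules in 3 cells (the next pair is 50 and 9). It was found in 50.0% of the cells of group 1 (26.0% to 74.0%) and 42.9% of group 2 (9.9% to 81.6%), intervals that overlap.

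The other tuft values rest on a few molecules. Fabp2 had 22 molecules in 3 of 18 cells of group 1 (exact Poisson interval 13.8 to 33.3) and was listed at 0 in group 2. Here 3 counts over the group of 7 cells are taken as the limit that a count of 0 allows. The lower end of that interval is 1.79-fold higher per cell, if every molecule is counted as independent. All 22 were in 3 cells, so this is no lower bound between groups of cells. The detection intervals of group 1 (3.6% to 41.4%) and group 2 (0% to 41.0%) overlap. Apob had 3 molecules in 3 of 7 cells of group 2 and was listed at 0 in group 1, and Npc1l1 had 2 molecules in 2 cells of group 1 and was listed at 0 in group 2. Neither exceeds that limit of 3 counts, so no fold is given. Dgat1 was at 0.16, Apoc3 at -0.04 and Mttp at -0.16 in the authors' deposited table, with smallest counts of 5 or fewer in each group. By the deposited values, 3 of the 8 listed genes reached 0.25, Fabp2 included, where 6.59% of all genes did, and 1, Apob, was at -0.25 or less, where 22.4% were. Among genes detected in both groups, 2 of 5 reached 0.25, where 3.87% did, and none was at -0.25 or less, where 29.8% were. Of 10 enterocyte markers listed, 8 exceeded the median over all genes, and Dpp4, Alpi and Slc15a1 were at 0 in a group. The detection shares of these markers summed to 255.5 points in group 1 and 185.8 in group 2. Of the 7 tuft markers 3 were at 0.25 or more and 1 at -0.25 or less, with summed shares of 499.9 and 442.8 points. Of the 7 goblet markers 3 were at -0.25 or less and 4 above the median of all genes. Their median was 0.05, and their shares summed to 261.2 points in group 1 and 299.9 in group 2. The part of these lists in the tuft values was not tested.

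Fold change and detection differed in sign in some of the values of these genes. Of 30 pairs of gene and cell type detected in both groups, 8 were past 0.25 in either direction, and these were the 5 values of Apoa1, 2 of Fabp2 and 1 of Fabp1. In 3 of the 8, Apoa1 in stem and tuft cells and Fabp2 in goblet cells, the group with the higher mean had the smaller share of positive cells. The detection differences were -1.8, -11.1 and -2.8 points in that order. In tuft cells they rest on 16 of 18 and 7 of 7 cells, with intervals that overlap (65.3% to 98.6% and 59.0% to 100%). How often the signs differ over all genes was not computed. The values of the other lipid genes lay between -0.16 and 0.20. In enterocytes and goblet cells they were higher where detection was higher, except for Mttp and Dgat1 in enterocytes.

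**Figure D4:**
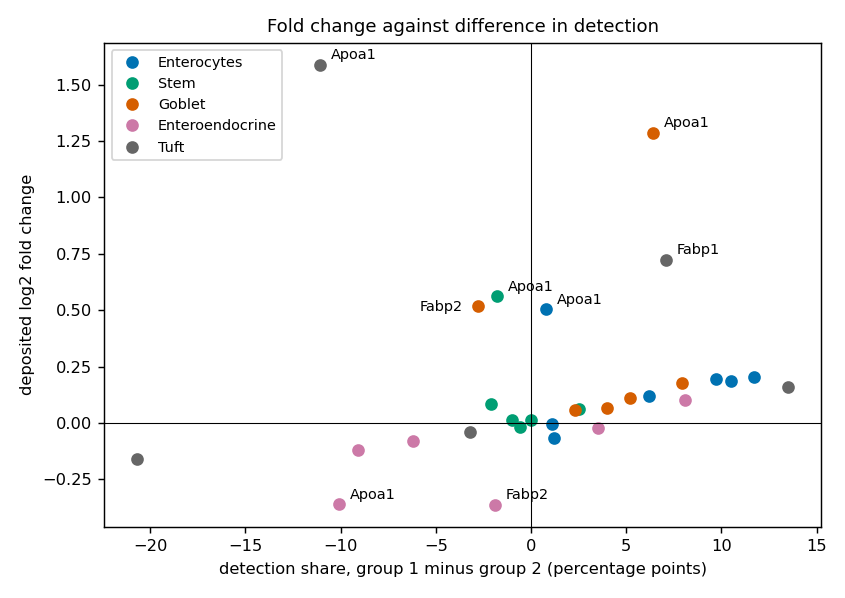
Deposited log2 fold change (y axis) against the difference in detection share, group 1 minus group 2 (x axis, percentage points), for the 30 pairs of gene and cell type detected in both groups, with names at values past 0.25. Apoa1 in tuft cells sits at 1.59 with a detection difference of -11.1 points.

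Over the 5 cell types, fold changes of 2341 other genes were compared with those of Apoa1 by Euclidean distance. These were genes listed for all 5 cell types, with symbols of predicted genes, Riken clones and pseudogenes left out. The nearest to Apoa1 were Fabp6, Fabp2, Krt20, Sprr2a2 and Guca2b. Their distances were 1.05, 1.05, 1.21, 1.25 and 1.31 on the log2 scale, where the median gene was at 2.36. The ileal bile acid binding protein Fabp6 was at 0.18 in enterocytes, 0.25 in stem, 0.79 in goblet, -0.15 in enteroendocrine and 0.81 in tuft cells, by the authors' deposited table. The cell types share the 2 samples, so likeness across them is a description. The tuft values of Fabp2, Guca2b, Apob and Npc1l1 rest on a group listed at 0. The distance was not scaled to the spread of each cell type, so tuft cells, where fold changes spread widest, could weigh most. Sprr2a2 was near Apoa1 in tuft cells (1.25 and 1.59) but at -0.11 in enterocytes, where Apoa1 was at 0.50. The other lipid genes were further off, with Npc1l1 at rank 157 (distance 2.00), Dgat1 at 278, Mttp at 816 and Apob at 1605. The rank of Apob includes a tuft value of -0.51 that rests on 3 molecules, and that of Npc1l1 a tuft value of 0.15 on 2 molecules.

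A wider list of 69 genes of lipid handling, from fatty acid transport and re-esterification to chylomicron export and transcriptional control, was counted in the same way. In enterocytes 37 were listed, 23 of them above the median of all genes, with a median of -0.01. None was past 0.25 in either direction, where 0.204% of all genes were higher and 1.55% lower. The highest among those detected in at least 25% of cells were Slc27a4, a fatty acid transport protein (0.13), Rbp2, the cellular retinol carrier (0.12), and the lipid droplet protein Plin3 (0.11), and the lowest were P4hb, the partner subunit of Mttp (-0.16), Tm6sf2 (-0.14) and the lipoprotein maturation gene Cideb (-0.14), in the authors' deposited table. In stem cells 21 of 32 and in goblet cells 19 of 28 were above the median, with medians of -0.05 and -0.03. None reached 0.25, where 0.0185% of all genes did in stem and 0.617% in goblet cells. At -0.25 or less were 1 in stem and 0 in goblet cells, where 4.39% and 2.76% of all genes were. P4hb was the lowest of the well detected genes in both, at -0.28 and -0.17, followed by the cargo receptor Surf4 at -0.21 and -0.11 and the vesicle coat gene Sar1b at -0.16 and -0.09, in the authors' deposited table. The highest in stem cells were the acyltransferase gene Agpat2 (0.04), Hnf4g (-0.03) and Plin3 (-0.05), and those in goblet cells included Ppard (0.04) and Mia3 (-0.03), in the authors' deposited table.

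In enteroendocrine cells 6 of 33 wider genes were above the median, with a median of -0.13. At -0.25 or less were 3, where 6.47% of all genes were, and none reached 0.25, where 2.23% did. Of the 33, 4 were well detected, Hnf4g (-0.0043), Hnf4a (-0.09), P4hb (-0.19) and Surf4 (-0.246), by the authors' deposited table. None of these 4 was at -0.25 or less. For tuft cells, 23 of 38 were above the median, 7 reached 0.25, where 6.59% of all genes did, and 8 were at -0.25 or less, where 22.4% were. Of the 38, 22 were detected in both groups. The 5 well detected ones included Hmgcs1, an enzyme of cholesterol synthesis (0.68, in 38.9% and 14.3% of cells), Srebf2 (0.05), Sec23b (-0.01), P4hb (-0.32) and the lipase gene Pnpla2 (-0.36), in the authors' deposited table. Among the cluster markers, 13 genes of the list had a row, and the highest were Slc27a4 (0.90), Rbp2 (0.88), Plin3 (0.58) and Creb3l3 (0.47) in cluster 1 and P4hb (0.48) in the goblet cluster 4, in the authors' deposited table.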

How the data were processed

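The authors deposited 5 cell type tables and 1 table of cluster markers; tools named in the submitters' processing notes are DESeq2 1.30.1, Seurat and Cell Ranger, with the build mm10, and no source says which made which column. Per the file headers, the deposited values are log2 fold changes, detection shares as a fraction of cells (printed here as percent), and p-values that the authors computed over single cells. Animals are not the unit of those p-values, and none was used. Cell filters, doublet treatment and cell type assignment are not given in the sources used here. The 10 genes and the wider list were chosen with earlier results of these data known. Values were read, ranked and counted with Python 3.11.15 and pandas 2.3.3. A call means a log2 fold change of at least 0.25 in size. Whole counts were sought by writing 2 to the power of the fold change as a fraction with a denominator up to 1000000, within a relative tolerance of 2e-15. For genes at 0 in a group, the ratio less 1 was multiplied by whole numbers until every gene gave a whole count within 0.001. Other counts are the smallest pair that gives the deposited value with at least 1 molecule per positive cell. The search for that pair used a smaller limit on the denominator. The functions for whole-number ratios, cell numbers and list counts were tested on simulated data, and the search for the pair was not. Intervals are exact (Clopper-Pearson or Poisson, 95%). All 10 genes are named wherever listed, and of the wider list the 3 highest and 3 lowest genes with mean detection of at least 25% per cell type, of which 1 is not reported here. Coordinates are from RefSeq (GRCm38, mm10). The number of planned cells and other entries of the library sheet, apart from age and sex, were not used.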

Additional observations from a re-analysis of the deposited data

Results flagged for a closer look

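Apoa1 was past 0.25 in opposite directions in enteroendocrine cells and in the other 4 cell types, and this is what flagged it. Its log2 fold change differed from that of enteroendocrine cells by 0.864 in enterocytes, 0.922 in stem, 1.65 in goblet and 1.95 in tuft cells. Fabp2 did the same between goblet and enteroendocrine cells, with a difference of 0.882. None of these differences was tested, since each genotype is 1 sample, and the order of the 2 groups may differ between tables.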

How the results depend on the processing

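No paired analysis was possible because each genotype has 1 sample and no result comes from a test, and for the same reason no replicate could be left out. With zero moved to the median of well detected genes (70% or more of the cells of each group), 4 lipid genes reached 0.25 in enterocytes, 3 in stem and 6 in tuft cells, and 0 were at -0.25 or less in tuft cells. With zero at the median of all genes, 5 reached 0.25 in tuft cells. Both medians were below 0 in these cell types, so every fold change there rose by the same amount. At a threshold of 0.1, 5 genes in enterocytes, 1 in stem, 4 in goblet, 1 in enteroendocrine and 5 in tuft cells were higher. Lower at that threshold were 3 in enteroendocrine and 2 in tuft cells, and 0 in the other cell types. At 0.5, 0 were lower in enteroendocrine cells. The share of all genes past 0.25 at a moved zero point, or past 0.1 or 0.5, was not computed. These counts therefore do not set the lipid genes apart from other genes. With genes detected in both groups alone, an alternative chosen after seeing the data, 0 were lower in tuft cells. With mean detection of at least 25%, genes above the median numbered 2 of 2 in stem, 3 of 3 in goblet, 0 of 1 in enteroendocrine and 3 of 3 in tuft cells. On the wider list that floor left 7 of 15 in enterocytes, 4 of 7 in stem, 5 of 9 in goblet, 1 of 4 in enteroendocrine and 3 of 5 in tuft cells. By detection, 1 of 6 genes was higher in stem cells. The floor leaves fewer genes, and a moved zero or threshold changes the counts, by construction. The cause of the other shifts was not tested. No value past 0.25 changed sign under either zero point, and 4 and 5 of the 33 values changed sign with zero at the median of all genes and of well detected genes. No source used here gives the depth per cell, and the tuft values rest on 18 and 7 cells.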
